A study of Homo sapiens with 12 samples.

Results

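The accessible chromatin at 8 genes that encode subunits of the SWI/SNF chromatin remodelling complexes was described in G401 cells, an established rhabdoid tumour line. The genes were SMARCA4, SMARCA2, SMARCC1, ARID1A, ARID1B, ARID2, PBRM1 and BRD9, and every peak that overlapped the interval of a gene or the 10 kb to either side of it was taken. Across 12 ATAC-seq libraries these peaks merged into 174 regions, of 187088 regions in the whole series. SMARCB1, the subunit that these cells lack, was not among the 8 genes and served only to check the labels.

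SWI/SNF complexes use the energy of ATP to slide or evict nucleosomes and so open DNA to other factors. SMARCA4 and SMARCA2 are the alternative ATPase motors, and SMARCC1 is a scaffold of the shared core. ARID1A and ARID1B are alternative subunits of canonical BAF, ARID2 and PBRM1 belong to PBAF, and BRD9 belongs to non-canonical BAF, a form that does not contain SMARCB1. Biallelic loss of SMARCB1 is the defining genetic lesion of rhabdoid tumours.

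All cells carried the genotype SMARCB1(-/-) and received doxycycline for 24 h, which induced GFP in the control cells and SMARCB1 in the others. During that time the cells were given DMSO, the vehicle, or dBRD9-A, a small molecule degrader of BRD9, so that 4 groups of 3 libraries arose: GFP with DMSO, GFP with dBRD9-A, SMARCB1 with DMSO and SMARCB1 with dBRD9-A. The labels do not say whether replicates were separate cultures or whether a line was a single clone, so every p-value measures the spread between libraries, which may be technical. In ATAC-seq a transposase inserts adapters into accessible DNA, and a peak is a place where fragments pile up above background. In bulk cells, a region open in fewer cells and a region less open in every cell cannot be told apart. The summit pileup used throughout is the number of fragments stacked at the highest point of a peak.

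The GFP lists held 33428 to 50089 peaks and the SMARCB1 lists 71169 to 96572. Background pileup, which grows with the number of fragments, was 0.0383 to 0.0784 in GFP libraries and 0.0487 to 0.111 in SMARCB1 libraries, so depth moved with the induction, and its part in the results below was not tested beyond the alternatives given beside them. Over the SMARCB1 gene itself, no peak was listed in any of the 6 GFP libraries and 3 to 6 peaks were listed in each SMARCB1 library, which matches the labels. No library was left out for depth. Positions are in hg19 (GRCh37), and a distance such as +2.21 kb gives the middle of a region relative to the 5′ end of the gene interval, positive into the gene. Exons and introns inside the intervals were not told apart here, and regions in the flanks need not belong to the subunit gene: by the RefSeq table of GRCh38.p14, PIGV reaches into the flank of ARID1A, CSPG5 into that of SMARCC1, GNL3 and GLT8D1 into that of PBRM1, and TRIP13 and ZDHHC11 into those of BRD9.

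The sequences just upstream of SMARCA2, SMARCA4 and BRD9 are shown because the 5′ ends of these genes behaved differently: the SMARCA2 region was listed mainly in SMARCB1 libraries, the SMARCA4 region in all libraries, and the BRD9 region in all GFP but only some SMARCB1 libraries. Each is the 250 bases before the most upstream start in the RefSeq table of GRCh38.p14, written 5′ to 3′ on the strand of the gene, with GC boxes (GGGCGG, either strand) and ETS cores (CCGGAAG, either strand) in capitals.
SMARCA2: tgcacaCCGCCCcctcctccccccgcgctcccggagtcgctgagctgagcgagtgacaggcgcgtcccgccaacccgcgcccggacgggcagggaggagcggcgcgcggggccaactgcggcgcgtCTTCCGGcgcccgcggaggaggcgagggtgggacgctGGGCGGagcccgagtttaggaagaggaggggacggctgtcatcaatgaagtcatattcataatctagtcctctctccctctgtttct
SMARCA4: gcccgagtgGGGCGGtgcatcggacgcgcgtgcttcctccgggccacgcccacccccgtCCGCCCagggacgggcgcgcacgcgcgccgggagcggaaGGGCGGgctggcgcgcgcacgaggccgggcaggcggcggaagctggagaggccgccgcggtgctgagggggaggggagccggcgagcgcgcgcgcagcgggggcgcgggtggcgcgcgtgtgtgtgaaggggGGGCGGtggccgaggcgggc
BRD9: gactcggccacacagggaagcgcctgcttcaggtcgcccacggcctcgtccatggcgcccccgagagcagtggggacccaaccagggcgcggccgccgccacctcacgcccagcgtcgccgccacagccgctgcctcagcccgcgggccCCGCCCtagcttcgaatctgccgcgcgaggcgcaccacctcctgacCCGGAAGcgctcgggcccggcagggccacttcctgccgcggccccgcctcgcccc
In that build they lie at chr9:2015097-2015346 (plus strand), chr19:10960780-10961029 (plus strand) and chr5:892802-893051 (minus strand). Because the peaks are in hg19, the overlap of peaks with these windows was not computed. The GC content was 68.8% for SMARCA2, 82.4% for SMARCA4 and 76.8% for BRD9, against a median of 58.0% over 35116 promoter windows of that length. SMARCA2 had 29 CpG dinucleotides, SMARCA4 had 44 and BRD9 had 32, against a median of 11. All 3 are CpG-rich promoter sequences, including that of SMARCA2, the gene whose 5′ region in hg19 was listed in 1 of 6 GFP libraries. SMARCA4 held 4 GC boxes, SMARCA2 held 2 and BRD9 held 1, and 42.6% of all windows held at least 1. SMARCA2 and BRD9 each held 1 ETS core, as did 8.52% of all windows at least once, and SMARCA4 had no match to those letters. On either strand, none of the 3 windows held the E-box letters CACGTG, found in 6.34% of all windows, or the AP-1 letters TGANTCA, found in 6.57%. A CCAAT box, an NRF1 motif and a YY1 motif were searched too and had no match in the 3, against 32.0%, 1.03% and 0.248% of all windows. In all, 6 of the 8 genes matched the table, and ARID2 and SMARCC1 did not.

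After SMARCB1 induction 6 of the 8 loci, all but ARID2 and BRD9, had regions listed in every SMARCB1 and no GFP library. Most of them, 15 of 17, lay inside the genes, as did 134 of all 174 regions under a rule that took only 10 kb of flank. At 7 of the 8 genes, all but SMARCA2, a region at the 5′ end was already listed in 6 of 6 GFP libraries. A SMARCB1 library held 77.3 ± 10.7 of the 174 regions (SD, n = 6) and a GFP library held 33.2 ± 6.18 (SD, n = 6), with ranges of 60 to 89 and 28 to 45 that do not overlap. The whole lists did not overlap either, at 71169 to 96572 and 33428 to 50089 peaks. Of the 174 regions, 17 were listed in all 12 libraries (18114 of 187088 in the series), 109 only in SMARCB1 libraries and 25 only in GFP libraries. Of the last 134, 67 were in a single library. The shares of such one-sided regions over the whole series were not computed. SMARCB1 lists were longer throughout, so these counts are not read as particular to the 8 loci. The 17 regions shared by all libraries lay close to gene starts, 11 of them within 5 kb, with a median summit pileup of 20.0 fragments. A further 17 regions were listed in 6 of 6 SMARCB1 and 0 of 6 GFP libraries. None of them lay within 5 kb of a 5′ end, and they had a median distance of 77.9 kb and a median summit pileup of 9.5 fragments. A region listed in all 12 libraries must exceed the threshold in each, so these sets differ in part by how they were drawn. Distances are from the 5′ ends of the 8 genes only, and the same contrast over the whole series was not computed. Of these further 17, 8 were at ARID1B, 3 at ARID1A, 3 at SMARCC1 and 1 each at SMARCA4, SMARCA2 and PBRM1, with none at ARID2 or BRD9. Regions found in 2 to 10 libraries were few at BRD9 (1), ARID2 (5) and SMARCA4 (6). SMARCA2 had 10, ARID1A, PBRM1 and SMARCC1 had 13 each, and ARID1B had 28.

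Presence was tested by a two-sided exact permutation of the induction labels within each treatment (400 arrangements, smallest p 0.005), with Benjamini-Hochberg adjustment over the 88398 regions of the series found in 2 to 10 libraries. Among the 89 regions at the 8 genes that could be tested, the 17 named above passed at an adjusted p of 0.0321, which is 19.1%, against 15.4% of all regions tested. Only a split of 6 of 6 against 0 of 6 can pass here. The share at the subunit genes was thus close to that of the genome, and nothing in this count is particular to them. At an unadjusted p under 0.05, 25 of 89 were gained (28.1%, against 25.9% of all regions). In the other direction 1 of 89 passed, at ARID1B (1.12%, against 0.131% of all regions, and against 0.482% at an unadjusted p under 0.05). Equal depth, here and below, means that summit pileups were thinned so that every list matched the smallest background pileup, 0.0383, with 1 threshold on −log10 p; read totals were not used, and pileups at shared regions are not matched by it. At equal depth 9 regions were called gained, and 7 were called when all lists were cut to equal length. Requiring a peak to cover 50% of a merged region gave 0 calls, because no region could pass there (smallest adjusted p in the series 0.0577), and 8 of the 17 still split 6 to 0. When labels were permuted only between libraries of the same replicate number, no region could pass either (smallest adjusted p in the series 0.201). All 17 kept their split of 6 to 0 there.

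**Figure D1:**
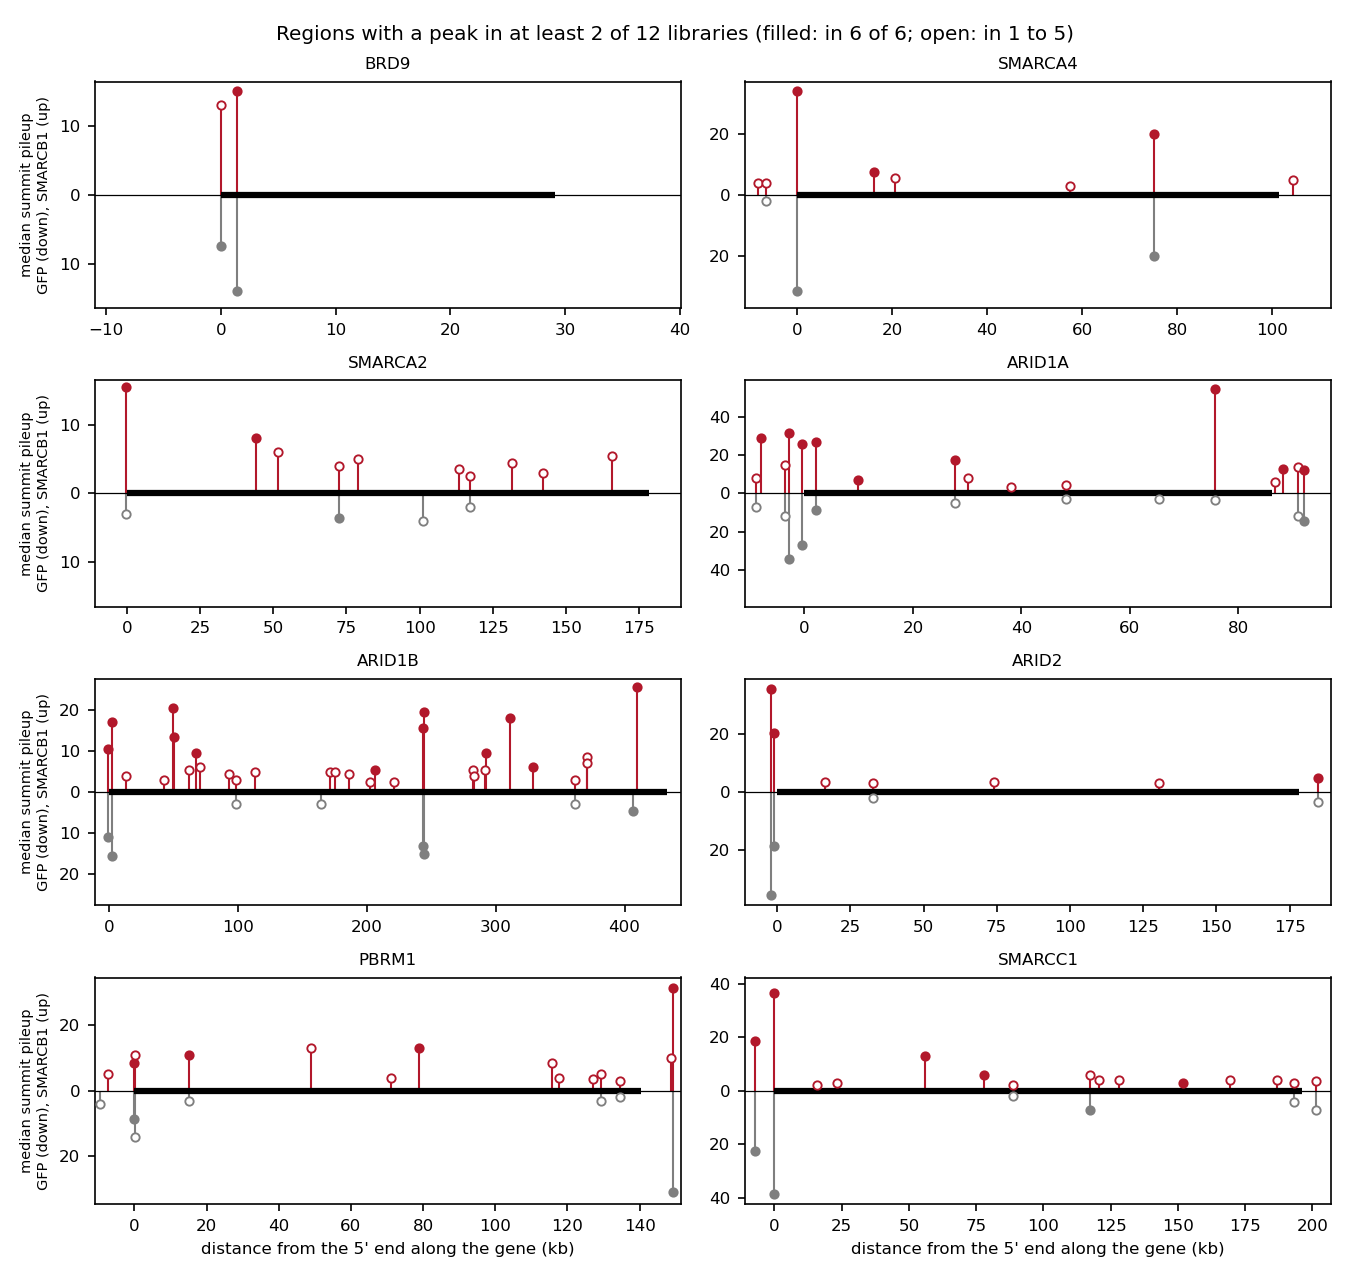
Regions with a peak in at least 2 of the 12 libraries, by distance from the 5′ end of each gene (x axis, kb; thick bar, gene interval). The stem height is the median summit pileup in fragments over the libraries with a peak, upward for SMARCB1 and downward for GFP; filled circles mark regions listed in all 6 libraries with that protein and open circles those in 1 to 5. Stems in both directions cluster at the gene starts, and most stems inside the genes point upward only.

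Among the motors, SMARCA2, which encodes the ATPase also called BRM, had a 5′ end listed mainly after induction. Its region at chr9:2014978-2015343 (-0.18 kb) had no peak in the 3 GFP DMSO libraries and a single peak of 3 fragments in GFP dBRD9-A replicate 2. In SMARCB1 cells it had 12, 25 and 12 fragments with DMSO and 16, 16 and 15 with dBRD9-A in replicates 1, 2 and 3. Every SMARCB1 library was thus above the one GFP value. With 1 of 6 GFP libraries positive the exact permutation test gave p = 0.02 and an adjusted p of 0.0757, which does not pass. The adjusted p was 0.0311 without GFP dBRD9-A replicate 2 and 0.033 when a −log10 q of 5 or more was required of a peak. Each of these alternatives removed the GFP peak. The region did not pass at equal depth (adjusted p = 0.0993) or at equal list length (adjusted p = 0.0853, exact permutation test). SMARCA2 was the only one of the 8 genes with no region in all 12 libraries.

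Within SMARCA2, the region at chr9:2059271-2059505 (+44.05 kb) was gained in 6 of 6 libraries (adjusted p = 0.0321, exact permutation test), with 6, 7 and 9 fragments with DMSO and 18, 7 and 10 with dBRD9-A. It did not pass at equal depth, where the adjusted p was 0.0993. Its neighbour at chr9:2066870-2067121 was listed in 5 of 6 SMARCB1 libraries and no GFP library, and was chosen for mention after its values were seen. A weak region at chr9:2087830-2087938 was present in both states, in all but 1 of the 12 libraries, at 2 to 10 fragments where listed, and was likewise chosen afterwards.

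SMARCA4, the gene of the other motor, also called BRG1, had a strong 5′ region at chr19:11071334-11071718 (-0.07 kb) in every library. Its pileups were 52, 28 and 15 fragments in GFP DMSO, 35, 41 and 26 in GFP dBRD9-A, 37, 36 and 33 in SMARCB1 DMSO, and 35, 16 and 18 in SMARCB1 dBRD9-A. GFP and SMARCB1 libraries overlapped. On the log2 scale, with each library scaled to its geometric mean over all shared regions, SMARCB1 minus GFP was -0.25 ± 0.19 (SE, limma adjusted p = 0.459). The other region in all 12 libraries, chr19:11146705-11146847 (+75.18 kb), was named after its values were seen and differed by -0.25 ± 0.20 (limma adjusted p = 0.468). The single gained region, chr19:11087699-11087815 (+16.16 kb), was listed at 8, 4 and 5 fragments with SMARCB1 and DMSO and at 7, 9 and 15 with SMARCB1 and dBRD9-A (adjusted p = 0.0321, exact permutation test). At equal depth its adjusted p was 0.0993. The start of SMARCA4 was thus listed in 12 of 12 libraries and that of SMARCA2 in 7 of 12, a contrast that was not tested.

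SMARCC1, the scaffold also known as BAF155, carried one of the strongest 5′ regions of the set. At chr3:47823304-47823675 (-0.08 kb) the pileups were 53, 40 and 37 fragments in GFP DMSO, 31, 37 and 53 in GFP dBRD9-A, 33, 37 and 40 in SMARCB1 DMSO, and 58, 30 and 36 in SMARCB1 dBRD9-A. All 4 groups overlapped unscaled, and the scaled difference of -0.21 ± 0.13 on the log2 scale (SE) did not pass (limma adjusted p = 0.319). Scaled, GFP libraries had 38.4 to 47.4 fragments and SMARCB1 libraries 30.2 to 47.6. With DMSO alone the scaled values did not overlap, at 39.8, 47.4 and 45.0 in GFP and 33.9, 34.4 and 38.0 in SMARCB1 (limma adjusted p = 0.383). Upstream, chr3:47830422-47830935 (-7.27 kb) had the smallest adjusted p among regions that were lower with SMARCB1, at -0.41 ± 0.16 (SE; limma adjusted p = 0.0944). Inside the gene, 3 regions were gained in 6 of 6 libraries (adjusted p = 0.0321 each, exact permutation test). The most accessible of them, chr3:47767192-47767498 (+56.06 kb), had 11, 11 and 23 fragments with DMSO and 15, 6 and 23 with dBRD9-A. The next, chr3:47745346-47745657 (+77.90 kb), had 5 to 11 fragments, and the third, chr3:47671144-47671562 (+152.05 kb), named after its values were seen, had 2 to 5. The last of these did not pass at equal depth (adjusted p = 0.248).

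ARID1A, which encodes a defining subunit of canonical BAF, was the densest of the 8 loci, with 7.38 peaks per 100 kb in GFP and 12.3 in SMARCB1 libraries. Its 5′ region at chr1:27021962-27022213 (-0.43 kb) was listed in all libraries, with 45, 28 and 24 fragments in GFP DMSO, 15, 26 and 29 in GFP dBRD9-A, 33, 30 and 22 in SMARCB1 DMSO, and 32, 19 and 17 in SMARCB1 dBRD9-A. GFP and SMARCB1 libraries overlapped in these values and after scaling (19.7 to 33.8 against 14.2 to 33.9). The scaled log2 difference was -0.20 ± 0.17 (SE, limma adjusted p = 0.490).

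A few kb into ARID1A lay the only one of the 17 shared regions whose summit strength changed with SMARCB1. At chr1:27024620-27024844 (+2.21 kb) the pileups were 16, 8 and 6 fragments in GFP DMSO, 9, 6 and 19 in GFP dBRD9-A, 26, 31 and 19 in SMARCB1 DMSO, and 28, 12 and 30 in SMARCB1 dBRD9-A. Raw values overlapped between the inductions, and after scaling each library to its geometric mean over all shared regions the means were 10.3 ± 2.71 fragments in GFP and 22.9 ± 5.13 in SMARCB1 libraries (SD, n = 6 each). Strength rose by 1.17 ± 0.21 on the log2 scale (SE; limma adjusted p = 0.000101). It was higher by 1.35 with DMSO and by 0.98 with dBRD9-A. Scaled instead to background pileup, the rise was 0.58 (limma adjusted p = 0.0249).

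The ARID1A locus also held strong regions that were absent or nearly absent from GFP lists. At chr1:27014333-27014616, in the upstream flank at -8.05 kb, no GFP library had a peak, and SMARCB1 libraries had 38, 31 and 27 fragments with DMSO and 23, 20 and 44 with dBRD9-A (adjusted p = 0.0321, exact permutation test). Its fold enrichment, the authors' own value, ranked on average at percentile 91.1 of the SMARCB1 lists. The other gained regions were chr1:27032222-27032523 (+9.85 kb), at 5 to 15 fragments, and chr1:27110526-27110788 in the downstream flank, at 6 to 20 fragments; the latter was named after its values were seen. The downstream one did not pass at equal depth (adjusted p = 0.411).

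A pair of ARID1A regions just missed this split, and both were chosen for mention after their values were seen. At chr1:27098004-27098535 (+75.75 kb) GFP DMSO replicates 1 and 2 had 3 and 4 fragments and no other GFP library had a peak, while SMARCB1 libraries had 58, 43 and 52 fragments with DMSO and 66, 33 and 66 with dBRD9-A. The lowest SMARCB1 value was thus far above the highest GFP value, and the mean percentile of 98.2 was the highest of any region at the 8 loci without a peak in every library. As presence in 2 of 6 against 6 of 6 it did not pass (p = 0.05, adjusted p = 0.166, exact permutation test), whereas at a −log10 q of at least 5 it was 0 of 6 against 6 of 6 (adjusted p = 0.033). With 1 GFP library still listed, it did not pass at equal depth (adjusted p = 0.0993) or at equal list length (adjusted p = 0.0853). At chr1:27049962-27050394 (+27.66 kb) the only GFP peak, of 5 fragments, was in dBRD9-A replicate 3, against 15, 18 and 17 with SMARCB1 and DMSO and 22, 16 and 22 with SMARCB1 and dBRD9-A. Its adjusted p was 0.0757, and 0.0297 without GFP dBRD9-A replicate 3, which removed that GFP peak.

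ARID1B, the paralogue of ARID1A in canonical BAF, is the longest of the 8 genes and gained the most regions. Its region at chr6:157098372-157098623 (-0.57 kb) was present in all libraries, at 20, 12 and 9 fragments in GFP DMSO, 10, 6 and 18 in GFP dBRD9-A, 7, 10 and 12 in SMARCB1 DMSO, and 15, 4 and 11 in SMARCB1 dBRD9-A. The log2 difference was -0.45 ± 0.25 (SE; limma adjusted p = 0.268). Directly over the 5′ end, chr6:157099047-157099130 had a peak in 1 GFP library only. Among shared regions higher with SMARCB1, chr6:157343262-157343545 (+244.34 kb) differed by 0.33 ± 0.22 (SE, limma adjusted p = 0.376). At chr6:157101541-157101734 (+2.57 kb) the difference was 0.03 ± 0.20 (SE, limma adjusted p = 0.953).

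Inside ARID1B, 8 regions were gained in 6 of 6 SMARCB1 and 0 of 6 GFP libraries (adjusted p = 0.0321 each, exact permutation test), spread from +50.12 to +409.52 kb. The strongest, chr6:157508334-157508822 (+409.52 kb), had 35, 26 and 24 fragments with SMARCB1 and DMSO and 38, 24 and 25 with SMARCB1 and dBRD9-A, at a mean percentile of 93.7. The second, chr6:157410435-157410763 (+311.54 kb), had 18, 22 and 18 with DMSO and 19, 7 and 13 with dBRD9-A. Both were also called at equal depth and at a −log10 q of at least 5. Of the other 6, those at +67.44, +206.42, +292.80 and +328.75 kb had 3 to 15 fragments, and a close pair at +50.12 and +50.60 kb had 9 to 32 and 6 to 36. At equal depth 5 of these 6 did not pass (adjusted p = 0.0993 each), and the region at +50.60 kb did (adjusted p = 0.0498). These 6 were named after their values were seen.

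ARID1B also had the only region at the 8 loci listed in 6 of 6 GFP and 0 of 6 SMARCB1 libraries. At chr6:157505504-157505619 (+406.50 kb), which is 116 bp wide, GFP libraries had 5, 3 and 3 fragments with DMSO and 4, 5 and 6 with dBRD9-A, and no SMARCB1 library had a peak (adjusted p = 0.0321, exact permutation test). It lies less than 5 kb from the strongest gained region of the gene, and was a weak peak in GFP cells, at a mean fold percentile of 27.1. At a −log10 q of at least 5 it did not pass (adjusted p = 0.172). With DMSO alone a second region, chr6:157263537-157263694 (+164.55 kb), was in 3 of 3 GFP and 0 of 3 SMARCB1 libraries, at 2, 4 and 3 fragments.

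ARID2, a DNA-binding subunit of PBAF, and PBRM1, which reads acetylated histones in the same complex, had listed starts in both states. The ARID2 region at chr12:46122514-46122869 (-0.93 kb) had 34, 18 and 11 fragments in GFP DMSO, 18, 19 and 24 in GFP dBRD9-A, 21, 20 and 19 in SMARCB1 DMSO, and 32, 15 and 22 in SMARCB1 dBRD9-A, a log2 difference of 0.00 ± 0.18 (SE; limma adjusted p = 0.999). A stronger region at chr12:46121255-46121738 (-2.12 kb), named after its values were seen, had 29 to 44 fragments in the 12 libraries, with a difference of -0.16 ± 0.13 (SE; limma adjusted p = 0.492). At ARID2 no region split the inductions 6 to 0, with only 5 regions there open to the presence test.

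PBRM1 had its 5′ region at chr3:52719828-52720084 (-0.09 kb), with 12, 6 and 6 fragments in GFP DMSO, 11, 5 and 19 in GFP dBRD9-A, 8, 11 and 9 in SMARCB1 DMSO, and 6, 8 and 15 in SMARCB1 dBRD9-A. The difference was -0.04 ± 0.27 (SE; limma adjusted p = 0.944), with all groups overlapping. The gained region of PBRM1, chr3:52640763-52640993 (+78.99 kb), had 8, 14 and 12 fragments with SMARCB1 and DMSO and 14, 8 and 17 with SMARCB1 and dBRD9-A (adjusted p = 0.0321, exact permutation test). It was also called at equal depth. A strong region at chr3:52570322-52570729 (+149.34 kb), beyond the far end of the gene, was listed at 24 to 54 fragments in all libraries and differed by -0.29 ± 0.13 (SE; limma adjusted p = 0.140).

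BRD9, the target of the degrader, showed no gained region, with only 1 region there open to the presence test. Its 5′ region at chr5:892861-893064 (-0.02 kb) had 11, 6 and 9 fragments in GFP DMSO and 4, 5 and 19 in GFP dBRD9-A. In SMARCB1 cells it was listed only in DMSO replicate 3, at 13 fragments, and in dBRD9-A replicates 1 and 3, at 7 and 15. Presence in 6 of 6 against 3 of 6 did not pass (p = 0.2, adjusted p = 0.372, exact permutation test). The region at chr5:891331-891668 (+1.44 kb) was in all libraries, at 15, 16 and 13 fragments in GFP DMSO, 9, 8 and 23 in GFP dBRD9-A, 16, 14 and 20 in SMARCB1 DMSO, and 9, 12 and 27 in SMARCB1 dBRD9-A. Its log2 difference of 0.12 ± 0.23 (SE) did not pass (limma adjusted p = 0.799). The start of BRD9 was thus listed in both states, and more evenly at +1.44 kb than at the 5′ end itself.

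**Figure D2:**
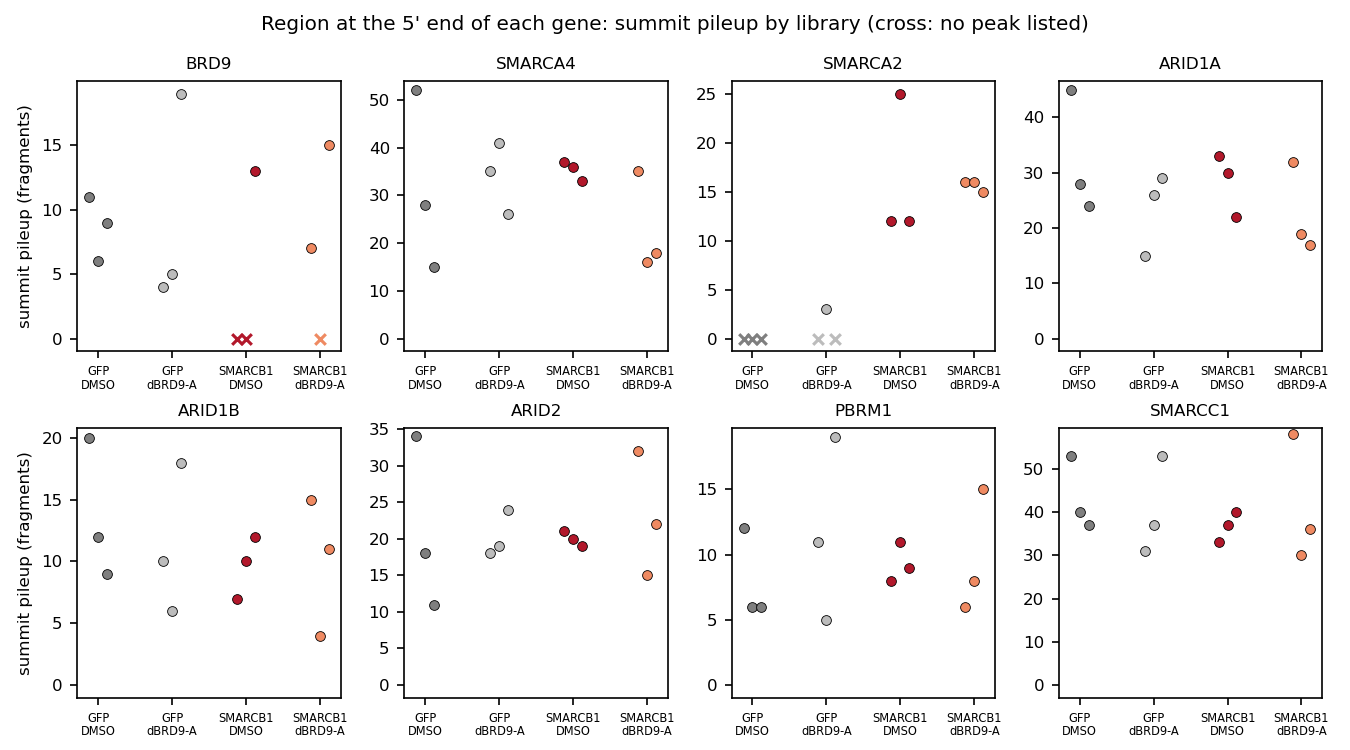
Summit pileup (y axis, fragments) of the region at the 5′ end of each gene in each library, by group; for ARID1B and PBRM1, which have several such regions, the one in most libraries is shown. Crosses mark libraries with no listed peak, which is not a measured 0. SMARCA2 has 1 GFP point, at 3 fragments, and 6 SMARCB1 points at 12 to 25, whereas at the other genes the unscaled GFP and SMARCB1 points overlap.

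Over the 17 shared regions together, 1 was higher with SMARCB1 and 0 were lower, against 8.16% higher and 4.75% lower among the 18114 regions of the series listed in all 12 libraries (limma, adjusted p of 0.05 or less). At an unadjusted p under 0.05, 1 was higher and 3 were lower, against 12.7% and 12.8% of shared regions. The 3 lower ones all lay in flanks, at SMARCC1 (-7.27 kb), PBRM1 (+149.34 kb) and ARID1A (chr1:27114321-27114702, +91.99 kb). The ARID1A one differed by -0.46 ± 0.20 (SE, limma adjusted p = 0.144). The median log2 difference of the 17 was -0.20, with a range of -0.46 to 1.17, and that of all shared regions was -0.06. The count depends on the scaling: divided by background pileup, the median of all shared regions moved to -0.65, that of the 17 to -0.79, and 14 of the 17 were then called lower. Without the flanks, 9 shared regions remained, with a median of -0.02.

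**Figure D3:**
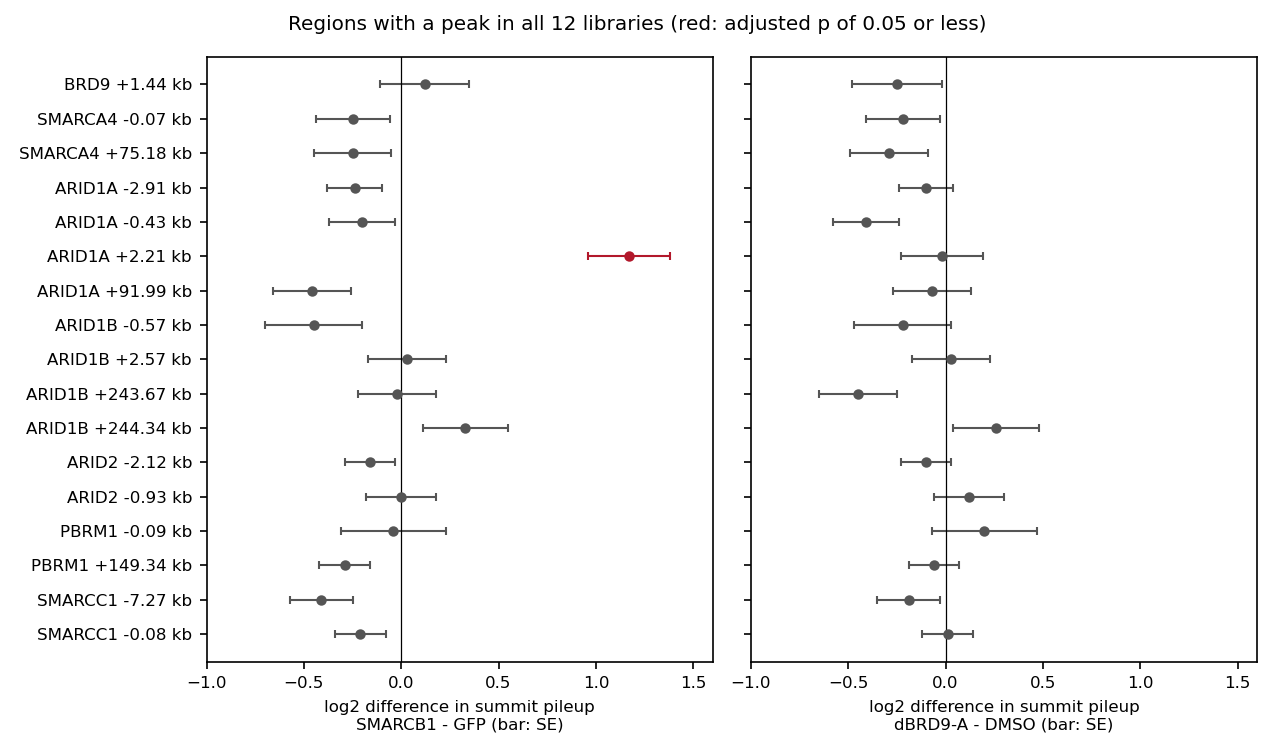
Log2 difference in scaled summit pileup (x axis; points, estimate; bars, SE) for the 17 regions with a peak in all 12 libraries, SMARCB1 minus GFP on the left and dBRD9-A minus DMSO on the right. The ARID1A region at +2.21 kb stands at 1.17 on the left, and all others lie between -0.46 and 0.33; on the right all lie between -0.45 and 0.26.

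The number of peaks at a locus was compared between inductions by the same exact permutation, adjusted over the 8 loci and 23928 tiles of 100 kb. It rose at 5 of the 8 loci (62.5%), against 44.6% of loci and tiles in the genome, and at none did it fall, against 0.175%. The loci with their flanks span 49.1 to 452.9 kb, so these shares compare intervals of unlike size. The tests for SMARCA4, SMARCA2, ARID1B, PBRM1 and SMARCC1 each gave an adjusted p of 0.0164. SMARCA2 did not pass at equal depth (3.33 peaks more, adjusted p = 0.101), and at a −log10 q of 5 or more neither SMARCA4 (1.5 more, adjusted p = 0.0551) nor SMARCC1 (1.5 more, adjusted p = 0.284) passed. ARID1B rose from 6.83 ± 0.753 to 22.8 ± 2.64 peaks and SMARCA2 from 1.83 ± 0.753 to 7.33 ± 2.58 (SD, n = 6 each). These ratios of 3.34 and 4.0 were the highest of the 8. PBRM1 rose from 4.0 ± 1.41 to 10 ± 2.28, SMARCC1 from 4.33 ± 0.516 to 9.83 ± 2.14, and SMARCA4 from 3.17 ± 0.753 to 7.50 ± 2.95 (SD, n = 6 each). For SMARCA4 the adjusted p was 0.0867 without GFP dBRD9-A replicate 2.

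The other 3 loci did not pass. ARID1A had 7.83 ± 2.99 peaks in GFP and 13.0 ± 2.45 in SMARCB1 libraries (adjusted p = 0.0552, exact permutation test), with GFP dBRD9-A replicate 3 at 13 peaks, and the adjusted p was 0.0211 without that library and 0.0213 at a −log10 q of 5 or more. ARID2 had 3.17 ± 1.17 and 5.33 ± 1.37 peaks (adjusted p = 0.0823, exact permutation test), and passed without SMARCB1 DMSO replicate 3 (adjusted p = 0.0278) or without GFP dBRD9-A replicate 3 (adjusted p = 0.0443). BRD9 had 2.17 ± 0.408 and 1.83 ± 0.983 peaks (adjusted p = 0.876, exact permutation test). BRD9 was the only locus with fewer peaks on average after induction.

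SMARCB1 lists were longer, so the locus counts were also expressed per 10000 peaks of each list. On that scale 18.7% of loci and tiles were called higher and 14.2% lower. ARID1B rose from 1.79 to 2.71 (adjusted p = 0.0199, exact permutation test). The share at BRD9 fell from 0.558 to 0.211 (adjusted p = 0.0199, exact permutation test), with a peak number that did not pass and longer lists in the denominator. The other 6 loci did not pass, and SMARCA2, at 0.475 and 0.855, had an adjusted p of 0.0753. With every list cut to the length of the shortest, no locus passed, and ARID1B had the largest remaining difference, 2.83 peaks (adjusted p = 0.0900, exact permutation test).

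**Figure D4:**
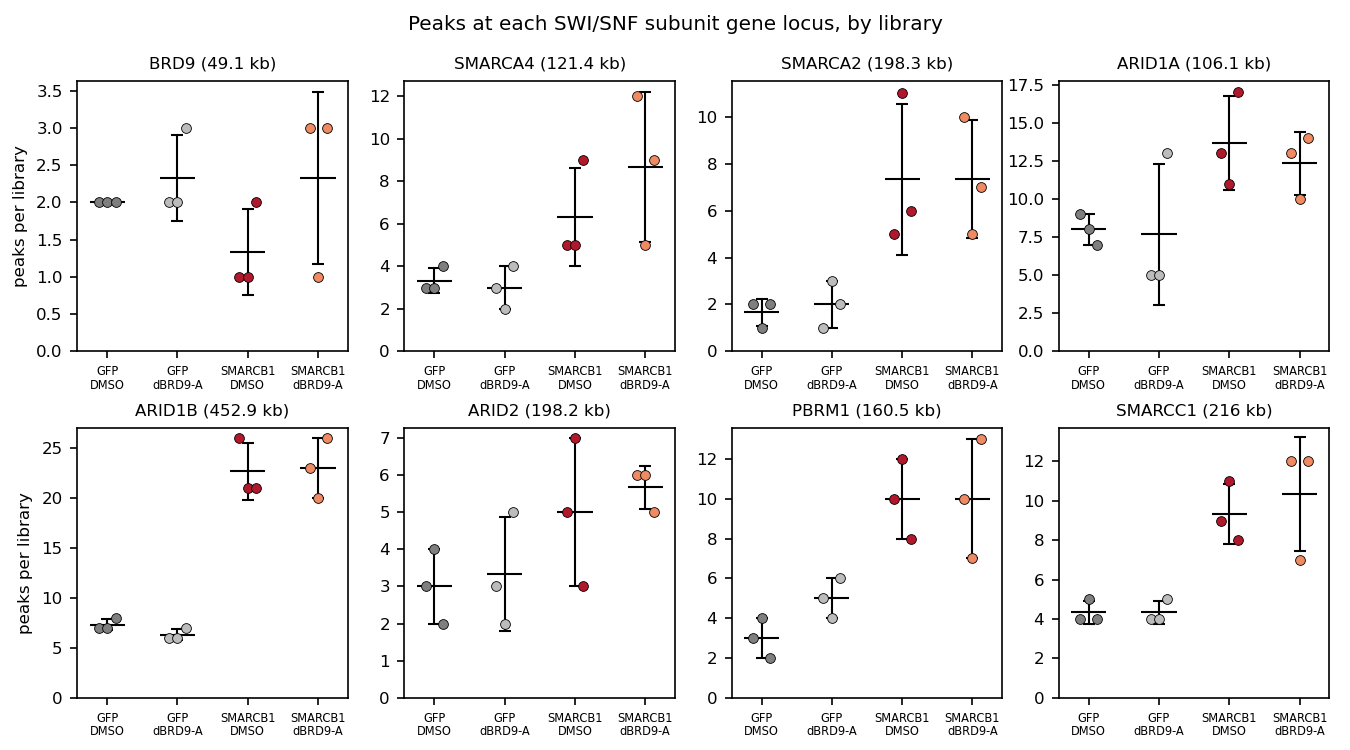
Number of peaks at each gene locus with its 10 kb flanks (y axis; the length of the locus is in each title) in each library, by group; horizontal bars are group means and error bars SD over 3 libraries. At ARID1B the 6 SMARCB1 libraries have 20 to 26 peaks and the 6 GFP libraries 6 to 8, while at BRD9 all libraries have 1 to 3.

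The induction was next compared within each treatment, counting regions in 3 of 3 libraries of one state and 0 of 3 of the other among those found in at least 3 of the 6. No test is attached, since 3 libraries against 3 cannot give a p below 0.1. With DMSO, 24 of 54 regions were gained with SMARCB1 (44.4%, against 36.3% of all regions) and 2 were lost, both at ARID1B (1.03% of all regions were lost). With dBRD9-A, 25 of 55 were gained (45.5%, against 34.1%) and 1 was lost, the ARID1B region at +406.50 kb (against 0.968%). The 2 lists of gained regions shared 17 members, 70.8% of the first and 68.0% of the second, close to the 64.3% and 68.6% over all regions of the series. Of the 24 regions gained with DMSO, 23 were also listed in 2 or 3 of the 3 SMARCB1 dBRD9-A libraries, and the remaining one in 1. The same share over all regions of the series was not computed, so this count is not read as particular to the 8 loci.

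With dBRD9-A, few regions at these loci separated the groups; the BRD9 protein itself was not measured in these data. Within GFP cells, 0 of 31 regions were gained with dBRD9-A (against 0.699% of all regions) and 1 was lost (against 0.625%), the ARID1B region at +164.55 kb, which had 2, 4 and 3 fragments with DMSO. Within SMARCB1 cells, 1 of 72 was gained (against 0.631%) and 0 were lost (against 0.565%). The gained one was chr19:11063400-11063535, in the flank upstream of SMARCA4 (-8.13 kb), with 4, 3 and 4 fragments in SMARCB1 dBRD9-A replicates 1, 2 and 3 and no peak elsewhere. Both regions were near the lower limit of what the lists hold, and at a −log10 q of at least 5 neither was called.

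The test of presence over both inductions called 0 of 89 regions with dBRD9-A in either direction by exact permutation (0.0% of all regions), and 0 at an unadjusted p under 0.05, where 42 regions were gained (0.0475%) and 15 lost (0.017%) in the whole series. No region of the series could pass after adjustment, since the permutation p cannot go below 0.005 and so few regions had a low p. The 0 of 89 is therefore not a measure of the effect of dBRD9-A. The lowest unadjusted p at the 8 loci was 0.08. In summit strength limma called 0 of the 17 shared regions higher (against 0.0166% of shared regions) or lower (against 0.0497%), with 0 higher and 2 lower at an unadjusted p under 0.05, against 2.97% and 3.51% of shared regions. Those were the 5′ region of ARID1A, at -0.41 ± 0.17 on the log2 scale (SE, limma adjusted p = 0.644), and an ARID1B region at -0.45 (limma adjusted p = 0.704). The latter, chr6:157342523-157342951, was named after its values were seen. The number of peaks per locus did not pass for any of the 8 genes with dBRD9-A (0 called, 0.0% of loci and tiles, exact permutation test), with unadjusted p from 0.25 upward. There too, no locus could pass after the adjustment over all tiles.

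Whether the effect of dBRD9-A differed between GFP and SMARCB1 cells was tested by the interaction term in limma, which called 0 of the 17 shared regions (against 0.00552% of shared regions), with a lowest adjusted p of 0.945. The interaction farthest from 0 was at the start of SMARCA4, at -1.0 on the log2 scale, where SMARCB1 minus GFP was 0.25 with DMSO and -0.75 with dBRD9-A. In scaled fragments, as tested, SMARCB1 libraries had 38.0, 33.5 and 31.4 with DMSO and 28.7, 20.8 and 15.1 with dBRD9-A. GFP libraries had 39.1, 33.2 and 18.2 with DMSO and 46.0, 49.1 and 18.8 with dBRD9-A. The SMARCB1 dBRD9-A values were thus all below the SMARCB1 DMSO values, while the GFP groups overlapped. The term did not pass (limma unadjusted p = 0.0144, adjusted p = 0.945).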

How the data were processed

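ATAC-seq peak lists of 12 libraries, 1 per library, were analysed, and the members and gene lists were chosen with earlier results of these data known. Per the submitters' processing notes, BWA 0.7.12-r1039, SAMtools 1.2, bedtools 2.24.0, MACS2 2.1.1.20160309, DiffBind and DESeq2 were used with hg19; their settings and the filter on peaks are not given in the sources used here. Per the labels, the lists come from nucleosome-free fragments. Each deposited list gives a score, a fold ratio over background, and the −log10 of p and q from the authors' peak caller, and the score was not used.

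The summit pileup and background were recovered from the fold and p, and 100% of peaks came out whole within 0.001 in −log10 p. Peaks overlapping by at least 1 bp were merged. Presence and peak numbers were tested by exact permutation within strata. Log2 summit pileup, scaled to the geometric mean over the 18114 regions in all lists, was fitted with limma 3.58.1 (eBayes with trend) in R 4.3.3, with Benjamini-Hochberg adjustment over the whole table and a threshold of 0.05. Scripts were tested on simulated data. Absence from a list can mean a peak below the threshold of that library, and read totals were not used here.

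At each locus the regions named were the one over or within 1 kb of the 5′ end, up to 2 gained regions of highest fold percentile, every region in 3 of 3 GFP and 0 of 3 SMARCB1 libraries in a treatment, up to 2 such for dBRD9-A, and, over all loci, the 4 shared regions of smallest adjusted p in each direction. Regions named outside this rule are said to be so where they appear. Gene strands for ARID2 and SMARCC1 were taken from general knowledge. Other SWI/SNF subunit genes were not analysed here, since no annotation of hg19 was used. Samples with the same replicate number were checked for pairing and were not treated as pairs. Alternatives covered peak threshold, list length, depth, region building, cover, call rule, flanks, tile width, scaling, measure, replicate block and each library left out.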

Additional observations from a re-analysis of the deposited data

How the results depend on the processing

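Of 448 values recomputed under other settings, 310 kept their direction and side of the threshold or, for counts, stayed within 1.5 times; of 924 values with a library left out, 888 did. The causes of the changes below were not tested. For SMARCB1 against GFP by presence (17 gained, 1 lost), equal depth gave 9 gained; equal length gave 7 gained, 2 lost and 16 at an unadjusted p; 50% cover gave 0 gained, 0 lost (no region could pass) and 17 at an unadjusted p; a −log10 q of at least 5 gave 0 lost. For 3 of 3 against 0 of 3 with DMSO (24 gained, 2 lost), the stricter q gave 13 gained and 0 lost, equal length 9, equal depth 14, and the looser 2 of 3 against 0 of 3 gave 40. With dBRD9-A (25 gained, 1 lost), equal length gave 12 gained and 3 lost, and 50% cover 16 gained.

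For dBRD9-A in GFP cells (0 gained, 1 lost), the stricter q and equal length gave 0 lost, and 2 of 3 gave 1 gained and 2 lost. In SMARCB1 cells (1 gained, 0 lost), the stricter q and the gene without flanks gave 0 gained, equal depth 1 lost, and 2 of 3 gave 4 gained and 1 lost. Of 5 loci with more peaks, 0 passed at equal length, where ARID2 and SMARCC1 reversed to -0.5 peaks, and 2 by share of the list, where ARID1A reversed to -0.43 and ARID2 to -0.171 per 10000. Scaling by background gave 14 shared regions lower instead of 0 and called 5 of the 5 tested 5′ regions; ARID2 reversed to -0.59, BRD9 at +1.44 kb to -0.47, ARID1B at +2.57 kb to -0.56 and at +244.34 kb to -0.26 (log2). With the authors' fold, PBRM1 reversed to 0.05.

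With the replicate block, 64 arrangements cannot give an exact permutation p below 0.0312, or an adjusted p below 0.201 for presence and 0.0829 for loci. The counts of 0 gained, 0 lost and 0 loci called were therefore fixed by the test: all 18 regions kept their 6 to 0 split, and the 5 loci stood at 0.0829. No limma count of calls changed. Same-numbered libraries correlated at 0.0482 to 0.227 (18 pairs of libraries) after group means were removed. Libraries of different number correlated at -0.171 to 0.0165 (36 pairs), so these ranges did not overlap. All 12 libraries correlated best with their own number, a hint from the data and not the design. The main tests did not pair libraries. Titles of same-numbered samples carry neighbouring serial numbers, whose meaning is not given.

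With 1 library left out in turn, presence gave 17 to 19 gained and 1 lost, loci called ranged from 4 to 7, regions with dBRD9-A in GFP cells from 0 to 1 gained and 1 to 2 lost, in SMARCB1 cells from 1 to 4 gained and 0 to 1 lost, and at an unadjusted p from 0 to 1. The log2 difference ranged from -0.14 to 0.10 at the ARID2 start, from -0.26 to 0.16 at the PBRM1 start, from -0.05 to 0.35 at BRD9 +1.44 kb and from -0.09 to 0.14 at ARID1B +2.57 kb. Depth limits what the lists hold, and both strong and weak regions lost calls at equal depth.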
